A study of Macaca mulatta with 9 samples.

Results

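Transcripts of 9 genes of late red cell maturation were followed in blood of rhesus macaques (Macaca mulatta, whole blood): BNIP3L, CA1, CA2, SELENBP1, HEMGN, AHSP, BPGM, TRIM58 and BCL2L1. They were taken by name from a deposited table of 24371 genes. All 9 were among the 10596 genes that reached a per-million value of at least 1 in 3 or more libraries and were therefore tested. The Evs-ABPC animals were injected with extracellular vesicles (EVs) labelled ABPC, which the series title traces to antler blastema progenitor cells. The Evs-FBMSC animals received EVs labelled FBMSC, and the PBS animals received the vehicle, phosphate-buffered saline. Of 9 animals, 3 were assigned at random to each group, and all carry the genotype label WT. Every library holds total RNA of whole blood from its own animal, which makes replicates of a group separate animals. The PBS animals are described as Old. Dose, number of injections, time of sampling and ages are not in the labels.

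A red cell in its last stages fills with hemoglobin, expels its nucleus, and then, as a reticulocyte, clears its mitochondria and most of its RNA. BNIP3L is the receptor on the mitochondrial outer membrane through which reticulocytes remove mitochondria by autophagy. TRIM58 is a ubiquitin ligase of late erythroblasts that acts on dynein around the time of enucleation, and BCL2L1 (BCL-XL) keeps late erythroid cells from apoptosis. AHSP is the chaperone of free alpha-globin, and HEMGN (hemogen) is a nuclear protein of differentiating blood cells. CA1 and CA2 are cytosolic carbonic anhydrases that speed the exchange of carbon dioxide and bicarbonate. BPGM makes bisphosphoglycerate, the metabolite that loosens oxygen from hemoglobin, and SELENBP1 is an abundant cytosolic red cell protein that oxidizes methanethiol.

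The deposited values are per-million values on a log2 scale, and each library sums to the same total, so a value is a share of the library and is written here in ppm. HBB, HBA and HBA1, which encode adult hemoglobin chains, took 70.9% to 82.4% of that total in Evs-ABPC libraries, 82.3% to 87.6% in Evs-FBMSC libraries and 88.2% to 92.7% in PBS libraries. Genes with a value of 1 or more numbered 10655 to 11941, 8956 to 9676 and 5393 to 8429 in that order of groups. Evs-ABPC replicate 2 had the lowest globin share of the 9 libraries and PBS replicate 1 the highest. The members were therefore read on 2 scales. As deposited, a value is a share of all transcripts. After median-ratio scaling, each library is divided by the median, over genes, of its value relative to the geometric mean of all libraries, which places a member relative to the bulk of genes. The size factors ranged from 1.48 to 2.44 in Evs-ABPC libraries, from 0.949 to 1.19 in Evs-FBMSC libraries and from 0.328 to 0.751 in PBS libraries. In blood measured in bulk, fewer cells of a type and less RNA per cell cannot be told apart.

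The tissue label was checked with marker lists. In addition to HBB, at 476827 ppm or more in every library, the neutrophil list (15 of 16 genes in the table), the T cell list (16 of 17), the B cell list (10 of 10), the monocyte list (9 of 10), the NK cell list (10 of 10) and the platelet list (14 of 16) had no gene at 0 in any library. Summed as deposited, T cell markers came to 301 to 1090 ppm in Evs-ABPC libraries, 128 to 357 in Evs-FBMSC libraries and 60.8 to 122 in PBS libraries. NK cell markers came to 496 to 1086, 251 to 773 and 51.3 to 170 in that order. Monocyte markers came to 570 to 823, 308 to 991 and 154 to 226, and neutrophil markers to 1870 to 5117, 1466 to 4856 and 720 to 1667. B cell markers came to 240 to 485, 88.8 to 228 and 63.9 to 295. Platelet markers came to 232 to 995, 147 to 283 and 74.4 to 159. For neutrophil, B cell and platelet markers the ranges of Evs-FBMSC and PBS libraries overlapped on this scale. After scaling, T cell markers summed to 204 to 448, 130 to 299 and 162 to 232, NK cell markers to 230 to 446, 255 to 648 and 128 to 362, and monocyte markers to 338 to 387, 324 to 1008 and 301 to 469. Neutrophil markers then summed to 785 to 2375, 1229 to 4939 and 1124 to 3541, B cell markers to 98.7 to 284, 90.3 to 241 and 195 to 392, and platelet markers to 95.4 to 462, 140 to 288 and 212 to 244. Their part in the results on the members was not tested.

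BNIP3L was the most abundant member per transcript length in every library. As deposited it stood at 577, 247 and 759 ppm in Evs-ABPC libraries, against 949, 806 and 672 in Evs-FBMSC libraries and 841, 925 and 677 in PBS libraries. Evs-ABPC replicate 2 was the lowest of all and the groups overlapped. The next highest mean belonged to TRIM58 in the Evs-ABPC group and to CA1 in the other groups. TRIM58, the ubiquitin ligase, had 156, 85.1 and 222 ppm in Evs-ABPC libraries, 146, 119 and 71.1 in Evs-FBMSC libraries and 84.8, 139 and 54.2 in PBS libraries. CA1 had 68.3, 77.6 and 138 ppm in Evs-ABPC libraries, 197, 159 and 80.6 in Evs-FBMSC libraries and 83.1, 235 and 179 in PBS libraries. For each of these genes, at least 1 library of every group lay inside the range of another group.

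BPGM, BCL2L1 and AHSP formed a middle tier whose ranges overlapped one another within each group. BPGM had 77.6, 50.0 and 137 ppm in Evs-ABPC libraries, 106, 123 and 77.1 in Evs-FBMSC libraries and 69.0, 88.8 and 45.8 in PBS libraries. BCL2L1 had 74.2, 50.9 and 86.5 in Evs-ABPC libraries, 58.5, 108 and 62.9 in Evs-FBMSC libraries and 55.8, 63.5 and 38.3 in PBS libraries. AHSP had 80.9, 32.7 and 99.7 in Evs-ABPC libraries, 73.4, 92.3 and 41.3 in Evs-FBMSC libraries and 26.4, 72.8 and 46.2 in PBS libraries. None of these genes separated any pair of groups on this scale.

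HEMGN, SELENBP1 and CA2 had the lowest means in every group. HEMGN had 28.4, 11.6 and 32.8 ppm in Evs-ABPC libraries, 59.6, 54.4 and 46.2 in Evs-FBMSC libraries and 39.9, 18.4 and 27.5 in PBS libraries. Its Evs-FBMSC libraries lay above every other library. SELENBP1 had 11.1, 6.60 and 14.6 in Evs-ABPC libraries, 31.7, 25.9 and 10.5 in Evs-FBMSC libraries and 11.9, 12.2 and 3.29 in PBS libraries. CA2 had 6.57, 5.83 and 8.91 in Evs-ABPC libraries, 10.9, 15.7 and 8.90 in Evs-FBMSC libraries and 7.94, 14.5 and 5.77 in PBS libraries. CA2 and SELENBP1 overlapped each other in each group. Reads behind these values, recovered from the deposited numbers, ran from 88 for CA2 in Evs-ABPC replicate 2 to 20511 for BNIP3L in PBS replicate 2. By reads the order differs, since the transcript length that the values imply is 5.04 times that of BNIP3L for TRIM58 and 3.85 times for BCL2L1: TRIM58 drew 12592, 4648 and 13446 reads in Evs-ABPC libraries, against 9213, 2672 and 9124 for BNIP3L in the same libraries.

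**Figure D1:**
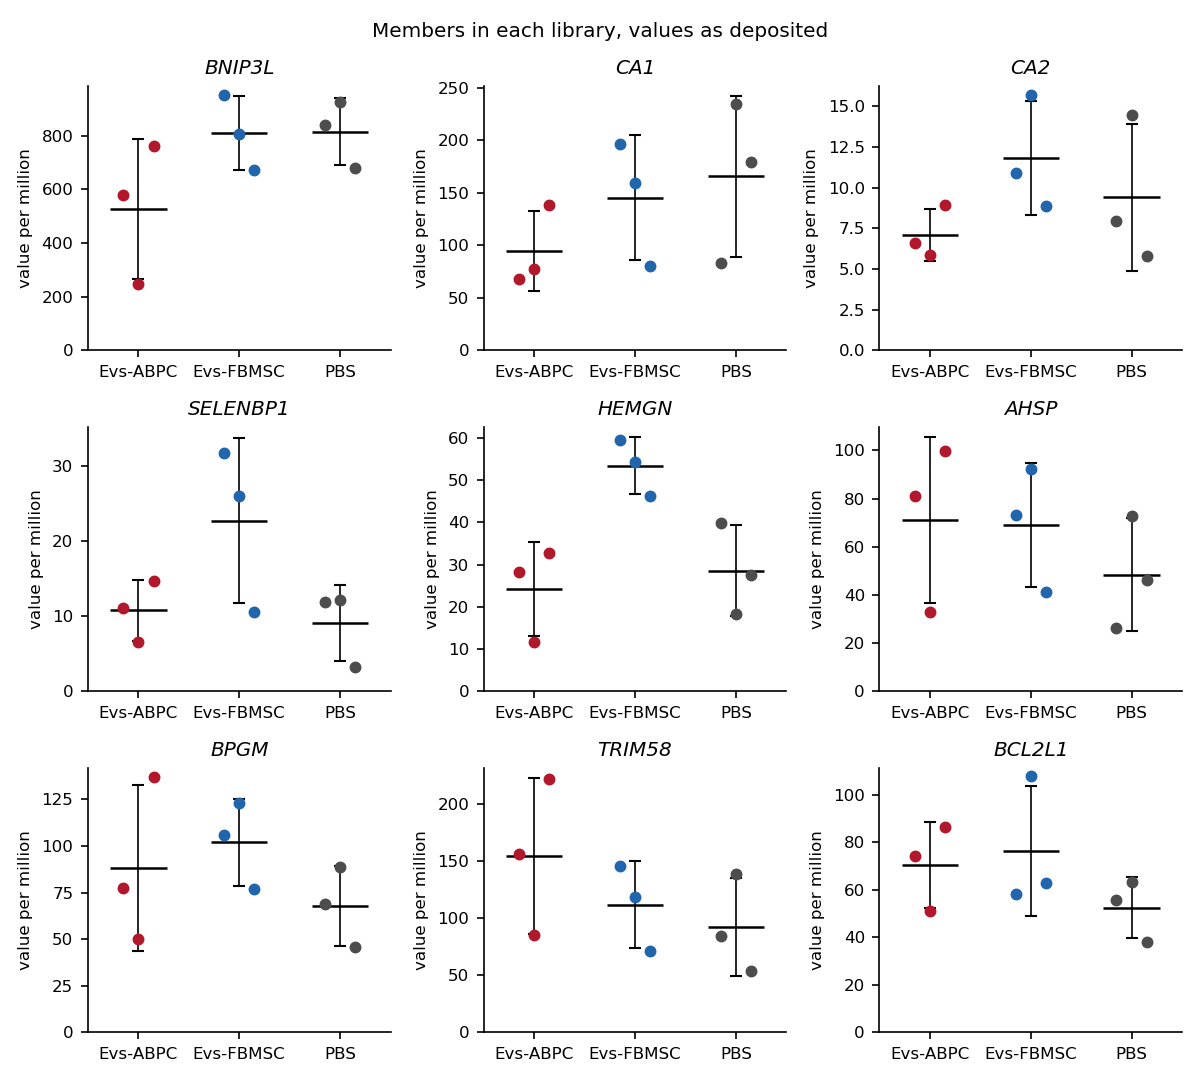
Per-million values (ppm) as deposited of each member (vertical axes, from 0) in Evs-ABPC, Evs-FBMSC and PBS libraries; points are libraries, horizontal lines means and bars SD (n = 3 each). HEMGN at 46.2 to 59.6 ppm in Evs-FBMSC libraries is the only member in which a group stands clear of the others, and BNIP3L is lowest in Evs-ABPC replicate 2 at 247.

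The first comparison, Evs-ABPC against PBS, asks how blood of animals given antler progenitor EVs differed from that of vehicle animals. As deposited, no member passed limma's test at an adjusted p under 0.05, while 90.9% of all genes tested were called higher and 0.0566% lower. Log2 fold changes of the members ran from -0.76 for BNIP3L to 0.73 for TRIM58, with a median of 0.30, against a median of 1.41 over all genes. The sign of the members' median turned with single libraries: it was -0.21 without PBS replicate 3 and -0.071 without Evs-ABPC replicate 3, and 0.61 without Evs-ABPC replicate 2. BNIP3L (SE 0.43, limma adjusted p = 0.0978) ranked 8 from the bottom of 10596 genes and CA1 (-0.75, SE 0.49, adjusted p = 0.147) ranked 10. Without PBS replicate 1 CA1 was called lower (-1.18, limma adjusted p = 0.0331), as were 10 of 10581 genes, with 8730 called higher. Without PBS replicate 2 CA1 was at -0.43. BNIP3L was at -0.29 without Evs-ABPC replicate 2. It was called lower without Evs-ABPC replicate 3 (-1.10, limma adjusted p = 0.0422), as were 10 of 9887 genes, with 8650 called higher. TRIM58 was called higher without Evs-ABPC replicate 2 (1.10, limma adjusted p = 0.0292), as were 8750 of 9979 genes. The median over all genes was 1.39 in that fit. CA2 (-0.29) and HEMGN (-0.28) ranked 45 and 46. The other values were 0.30 for BPGM, 0.33 for SELENBP1, 0.42 for BCL2L1 and 0.51 for AHSP, and TRIM58 ranked 880. So 4 of 9 members had a negative change, as did 1.05% of all genes tested. At an unadjusted p under 0.05 no member was called, where 91.2% of genes were higher and 0.0566% lower. For no member did the libraries of the groups separate, where 85.4% of genes were higher without overlap and 0.0661% lower. The minimum value for testing was met by all members in every library. By limma-voom on recovered reads, where a value is a share of reads with no regard to length, BNIP3L (-1.36, adjusted p = 0.00633) and CA1 (-1.34, adjusted p = 0.00612) were called lower. The members' median was -0.29, against 1.44 over all genes, and that fit called 26 of 10595 genes lower and 8177 higher. Library quality weights were added to that limma-voom fit after seeing the data. CA2 was then called lower too by limma-voom (-1.21, adjusted p = 0.00628), where 43 genes were called lower and 8672 higher. With the globins taken out of the total and the rest rescaled, all 9 fitted changes were negative, from -1.98 for BNIP3L to -0.48 for TRIM58, and none passed limma's test (adjusted p = 0.0714 for BNIP3L). Of all 10593 genes in that fit 8.84% had a negative change.

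Relative to the bulk of genes, all 9 members had negative fitted changes in Evs-ABPC against PBS blood, with a median of -1.69 on the log2 scale against 0.02 over all genes. No gene of the 10596 passed limma's adjusted threshold after scaling (0.0%), so none of the members did. At an unadjusted p under 0.05, 7 of 9 members were lower, where 6.78% of all genes were lower and 3.33% higher. For 7 of 9 members no Evs-ABPC library reached the lowest PBS library, where 7.26% of all genes were lower without overlap and 6.78% higher. SELENBP1 and TRIM58 were the members that overlapped.

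BNIP3L had scaled values of 391, 114 and 312 in Evs-ABPC libraries, against 2563, 1964 and 903 in PBS libraries, a log2 fold change of -2.78 (SE 0.54, limma adjusted p = 0.124). CA1 had 46.3, 36.0 and 56.8 in Evs-ABPC libraries, against 253, 499 and 238 in PBS libraries, a change of -2.74 (SE 0.40, limma adjusted p = 0.0774). Every Evs-ABPC library lay below every PBS library for both genes, and they ranked 4 and 5 from the bottom of all genes. HEMGN had 19.2, 5.39 and 13.5 in Evs-ABPC libraries, against 121, 39.0 and 36.6 in PBS libraries, a change of -2.21 (SE 0.52, limma adjusted p = 0.170). CA2 had 4.45, 2.71 and 3.66 in Evs-ABPC libraries, against 24.2, 30.7 and 7.69 in PBS libraries, a change of -2.07 (SE 0.42, limma adjusted p = 0.133). These 4 genes are the ones that were also negative as deposited.

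BPGM had scaled values of 52.6, 23.2 and 56.3 in Evs-ABPC libraries, against 210, 189 and 61.0 in PBS libraries (-1.69, SE 0.50). BCL2L1 had 50.3, 23.6 and 35.5 in Evs-ABPC libraries, against 170, 135 and 51.0 in PBS libraries (-1.57, SE 0.45). AHSP had 54.8, 15.2 and 40.9 in Evs-ABPC libraries, against 80.5, 155 and 61.6 in PBS libraries (-1.46, SE 0.50). For these genes the separation was narrow, with PBS replicate 3 close above the highest Evs-ABPC library. SELENBP1 had 7.51, 3.06 and 6.01 in Evs-ABPC libraries, against 36.1, 25.9 and 4.38 in PBS libraries (-1.49, SE 0.67). TRIM58 had 106, 39.5 and 91.2 in Evs-ABPC libraries, against 259, 295 and 72.3 in PBS libraries (-1.27, SE 0.57). In both, PBS replicate 3 lay inside the Evs-ABPC range.

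Evs-ABPC replicate 2 was the lowest of the 9 libraries for all 9 members after scaling, and PBS replicates 1 and 2 held the highest value of 5 and 4 members. Without Evs-ABPC replicate 2 all 9 changes stayed negative, from -2.56 for CA1 to -0.83 for TRIM58, and BNIP3L was at -2.23. TRIM58 and AHSP (-0.92) then moved by over 1.5 times. Without PBS replicate 3, 5 members were called lower by limma, where 116 of 10524 genes were called lower and 4 higher. The 5 members were BNIP3L (-3.21, limma adjusted p = 0.0372), CA1 (-2.93, adjusted p = 0.0318), CA2 (-2.64, adjusted p = 0.0156), BPGM (-2.25, adjusted p = 0.0393) and BCL2L1 (-2.09, adjusted p = 0.0392). Limma-voom with library quality weights on recovered reads and all libraries, a setting added after seeing the data, called 6 members lower after scaling. By that limma-voom fit they were CA1 (-2.59, adjusted p = 0.0122), BNIP3L (-2.72, adjusted p = 0.0137), CA2 (-2.47, adjusted p = 0.0138), HEMGN (-2.37, adjusted p = 0.0263), BCL2L1 (-1.78, adjusted p = 0.0366) and BPGM (-1.70, adjusted p = 0.0453). That fit called 15 genes higher and 205 lower in all, and without the weights the fit called 0 and 1 and no member. Of the 6 libraries compared, Evs-ABPC replicate 2 (0.368) and PBS replicate 3 (0.588) had the lowest weights. Without PBS replicate 3, SELENBP1 was at -2.35 and TRIM58 at -1.91 by limma, and without PBS replicate 1 SELENBP1 was at -0.96.

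**Figure D2:**
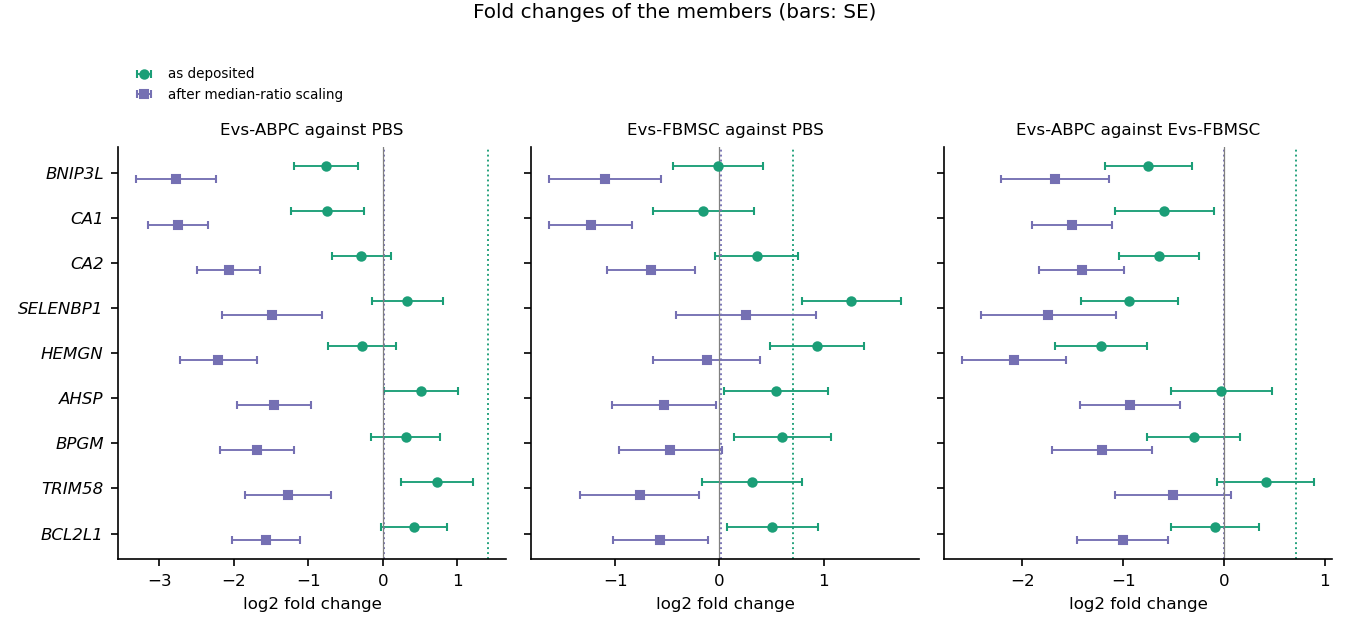
Log2 fold change of each member (horizontal axes, bars SE from limma) in the 3 comparisons, circles for values as deposited and squares after median-ratio scaling; the dotted line of the same colour is the median of all genes tested, and the grey line is 0. In Evs-ABPC against PBS the scaled values run from -2.78 to -1.27, all left of 0, and those as deposited from -0.76 to 0.73, all left of the all-gene median of 1.41.

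**Figure D3:**
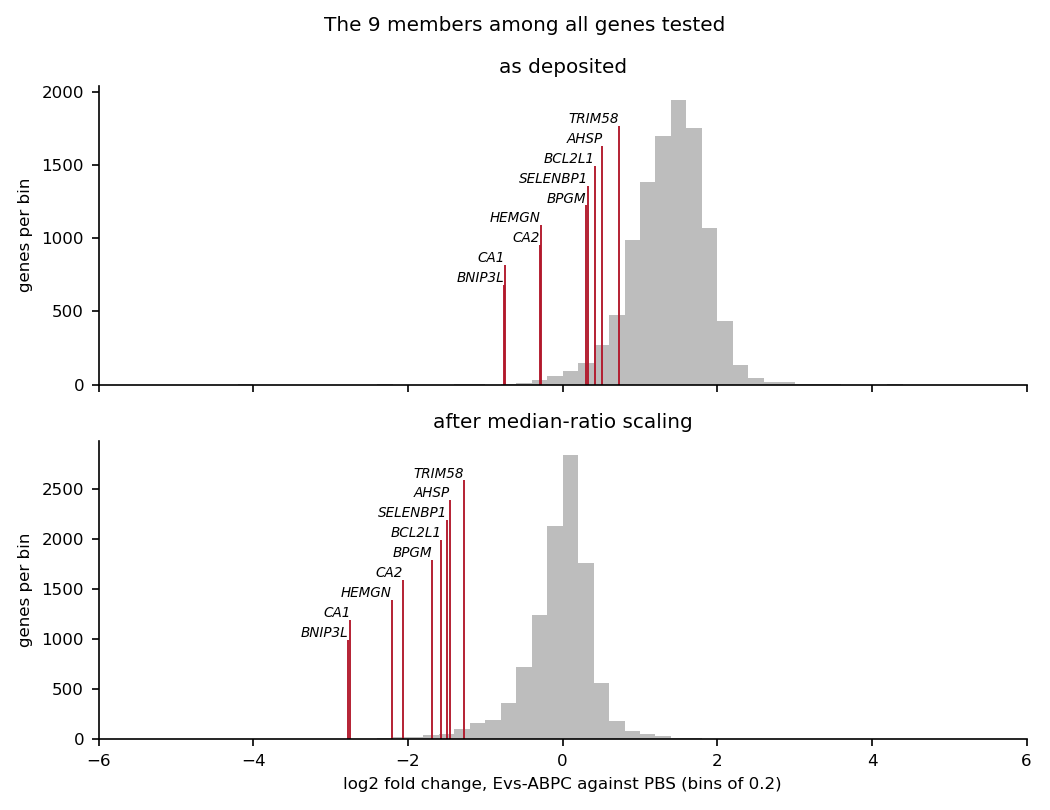
Numbers of genes tested (vertical axis, bins of 0.2) by log2 fold change, Evs-ABPC against PBS, as deposited (top) and after scaling (bottom), with a red line at each member; line heights only separate the names. The members lie to the left of most genes on both scales, with BNIP3L and CA1 farthest left.

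The proportions between members were also compared. A ratio of 2 genes in a library does not depend on how libraries are scaled, so it also avoids the choice between the scales. Of the 36 ratios between members, 10 did not overlap between Evs-ABPC and PBS libraries, or 27.8%. Of all pairs of genes tested and above 0 in every library, 15.0% did not. The 36 ratios share genes and are not independent, and BNIP3L or TRIM58 enters most of those without overlap. Exact two-sided permutation tests of 3 against 3 libraries cannot give a p below 0.1, which is 0.386 when adjusted over the 108 tests of 36 ratios in 3 comparisons. No ratio therefore passed, and those named were picked with their values known.

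Of the 36, BNIP3L to TRIM58 had the lowest fold. The ratio of BNIP3L to TRIM58 was 3.69, 2.90 and 3.42 in Evs-ABPC libraries, against 6.49, 6.78 and 9.45 in Evs-FBMSC libraries and 9.92, 6.66 and 12.5 in PBS libraries. Evs-ABPC libraries lay below all others, at 0.354 times the PBS ratio and 0.445 times the Evs-FBMSC ratio. Leaving out single libraries, the first fold ranged from 0.298 to 0.408. BNIP3L to BCL2L1 was 7.77, 4.84 and 8.78 in Evs-ABPC libraries and 15.1, 14.6 and 17.7 in PBS libraries, a fold of 0.439 (0.390 to 0.525 with libraries left out). BNIP3L to AHSP was 7.13, 7.53 and 7.62 in Evs-ABPC libraries, against 31.9, 12.7 and 14.7 in PBS libraries, a fold of 0.410. The Evs-ABPC libraries were nearly alike in this ratio, while PBS replicate 1 stood above the other PBS libraries. CA1 to TRIM58 was 0.436, 0.912 and 0.623 in Evs-ABPC libraries and 0.980, 1.69 and 3.30 in PBS libraries, a fold of 0.357. CA2 to TRIM58 had a fold of 0.481 in the same comparison, with no overlap.

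Read as shares of the 9 members' summed per-million value, TRIM58 made up 14.8% ± 0.267 in Evs-ABPC libraries, 7.84% ± 1.16 in Evs-FBMSC libraries and 6.95% ± 1.91 in PBS libraries (SD, n = 3 each). BNIP3L made up 49.2% ± 5.12, 58.2% ± 4.59 and 63.6% ± 5.03 in that order. The TRIM58 share spanned 14.5% to 15.0% over the Evs-ABPC libraries, although their summed member values spanned 567 to 1499 ppm. The sums as deposited were 1080, 567 and 1499 in Evs-ABPC libraries, 1632, 1503 and 1071 in Evs-FBMSC libraries and 1220, 1569 and 1078 in PBS libraries, and overlapped. After scaling they were 732, 263 and 616 in Evs-ABPC libraries, 1660, 1260 and 1128 in Evs-FBMSC libraries and 3717, 3332 and 1435 in PBS libraries. On that scale Evs-ABPC lay below Evs-FBMSC in every library, and PBS replicate 3 lay among the Evs-FBMSC values.

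**Figure D4:**
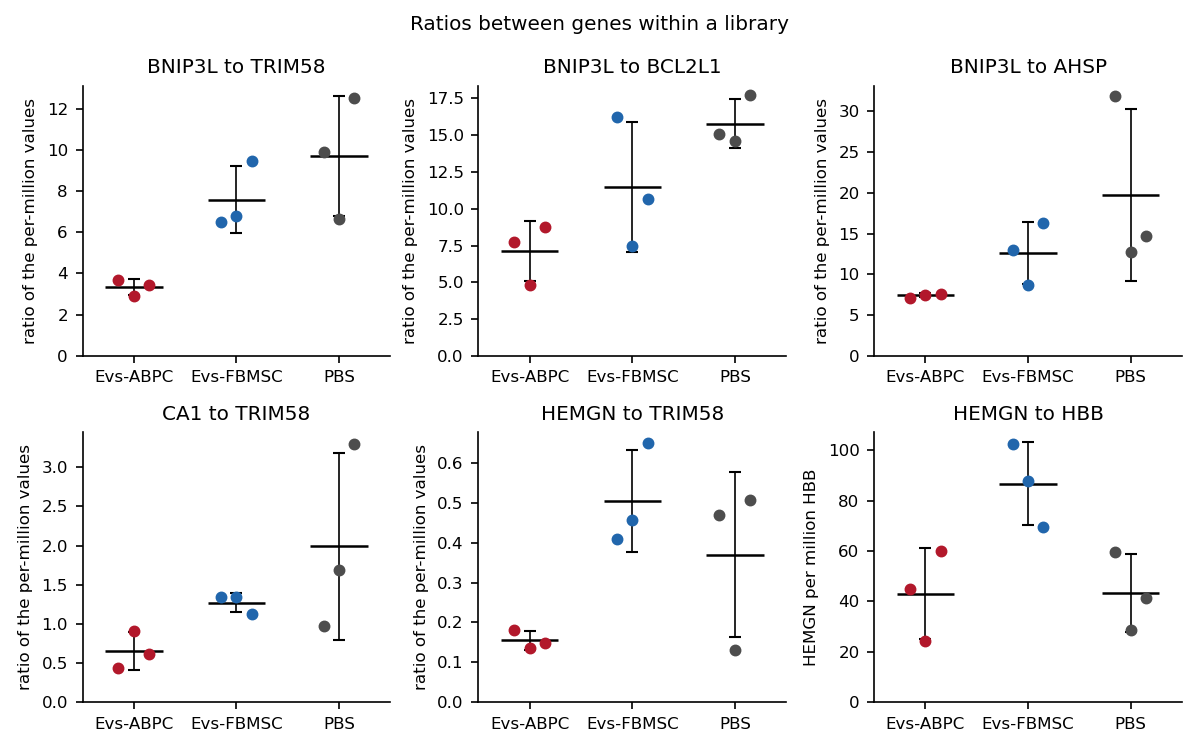
Ratios of per-million values of 2 genes within a library (vertical axes, from 0; HEMGN to HBB in ppm of HBB) in Evs-ABPC, Evs-FBMSC and PBS libraries; points are libraries, lines means and bars SD (n = 3 each). BNIP3L to TRIM58 sits at 2.90 to 3.69 in Evs-ABPC libraries, below the 6.49 to 12.5 of all other libraries, and HEMGN to TRIM58 sits at 0.136 to 0.181 in Evs-ABPC libraries, below the Evs-FBMSC libraries.

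Set against HBB, the most abundant red cell transcript, the members showed no common direction in Evs-ABPC against PBS. Folds of the ratio to HBB were 0.706 for BNIP3L, 0.711 for CA1, 0.959 for CA2, 0.973 for HEMGN, 1.48 for BPGM, 1.57 for SELENBP1, 1.61 for BCL2L1, 1.72 for AHSP and 1.99 for TRIM58. With single libraries left out, the fold of SELENBP1 ranged from 1.01 to 1.99. BCL2L1, at 117, 107 and 159 ppm of HBB in Evs-ABPC libraries and 83.2, 99.7 and 57.9 in PBS libraries, was the member whose libraries did not overlap. Over all genes tested 88.0% were higher relative to HBB without overlap and 0.0283% lower. Over the 27 such ratios in 3 comparisons the exact permutation p adjusted to 0.675 or more.

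The second comparison, Evs-ABPC against Evs-FBMSC, sets the 2 kinds of EV side by side and shares the Evs-ABPC libraries with the first. HEMGN stood out as deposited. Its values gave a log2 fold change of -1.22 (SE 0.45, limma adjusted p = 0.0737), rank 10 from the bottom of 10596 genes, and its Evs-ABPC libraries lay below all Evs-FBMSC libraries, as they did for 0.17% of genes, with 50.5% above. Without Evs-ABPC replicate 1 HEMGN passed (-1.39, limma adjusted p = 0.0322), where 20 of 10062 genes were called lower and 4590 higher. Without Evs-ABPC replicate 2 its change was -0.78. No member passed with all libraries, where 0.585% of genes were called higher and 0.0566% lower. HEMGN was also the member at an unadjusted p under 0.05, as were 0.274% of genes in that direction and 48.0% in the other. Other changes ran from -0.94 for SELENBP1 to 0.42 for TRIM58, with BNIP3L at -0.75, CA2 at -0.65, CA1 at -0.59, BPGM at -0.30, BCL2L1 at -0.09 and AHSP at -0.03. The members' median was -0.59, against 0.71 over all genes.

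After scaling, all 9 members were lower in Evs-ABPC than in Evs-FBMSC blood by their fitted values, with a median of -1.41, and again no gene tested passed limma's adjusted threshold (0.0%). HEMGN had 19.2, 5.39 and 13.5 in Evs-ABPC libraries, against 60.6, 45.6 and 48.7 in Evs-FBMSC libraries (-2.08, SE 0.52, limma adjusted p = 0.772). SELENBP1 had 7.51, 3.06 and 6.01 against 32.2, 21.7 and 11.1 (-1.74, SE 0.67), and BNIP3L had 391, 114 and 312 against 965, 675 and 708 (-1.68, SE 0.54), in the same order of groups. The other changes were -1.51 for CA1, -1.41 for CA2, -1.21 for BPGM, -1.0 for BCL2L1, -0.93 for AHSP and -0.51 for TRIM58. The libraries did not overlap for 7 of 9 members, where 6.14% of genes were lower without overlap and 4.63% higher. An unadjusted p under 0.05 was found for 6 of 9, where 3.64% of genes were lower and 1.56% higher. AHSP and TRIM58 were the members that overlapped, and without Evs-ABPC replicate 2 TRIM58 was at -0.06.

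Of the 36 ratios between members, 13 did not overlap here (36.1%), where 11.6% of all pairs of genes did not, and none passed the exact permutation test (adjusted p of 0.386 or more). The ratios share genes, so they are not independent of one another. HEMGN to TRIM58 was 0.181, 0.136 and 0.148 in Evs-ABPC libraries, against 0.408, 0.458 and 0.649 in Evs-FBMSC libraries, a fold of 0.311 (0.282 to 0.357 with libraries left out). HEMGN to AHSP was 0.351, 0.354 and 0.329 in Evs-ABPC libraries, against 0.812, 0.589 and 1.12 in Evs-FBMSC libraries, a fold of 0.424. SELENBP1 to TRIM58 had a fold of 0.373 and CA2 to TRIM58 one of 0.455. BNIP3L to HEMGN went the other way, at 20.3, 21.2 and 23.2 in Evs-ABPC libraries and 15.9, 14.8 and 14.6 in Evs-FBMSC libraries, a fold of 1.43. HEMGN was also lower relative to HBB, at 44.8, 24.3 and 60.1 ppm of HBB in Evs-ABPC libraries and 102, 87.6 and 69.6 in Evs-FBMSC libraries, a fold of 0.472 without overlap, where 0.113% of genes were lower in this way and 51.9% higher. The exact permutation p was 0.1 for each of these, the smallest possible.

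The third comparison, Evs-FBMSC against PBS, shares libraries with both others. As deposited no member passed, where limma called 0.255% of genes higher and 0.00944% lower. SELENBP1 (1.27, SE 0.48, limma adjusted p = 0.0909) and HEMGN (0.94, SE 0.45, limma adjusted p = 0.113) had an unadjusted p under 0.05, as did 43.6% of genes in the higher direction and 0.113% in the lower. HEMGN was higher without overlap between the groups, where 50.9% of genes were higher and 0.0849% lower. SELENBP1 without PBS replicate 3 was at 0.73. It passed without Evs-ABPC replicate 2, a library that enters through the shared spread (1.27, limma adjusted p = 0.0478), where 694 of 9979 genes were called higher and 8 lower. By limma-voom with library quality weights on recovered reads, HEMGN was called higher (0.98, adjusted p = 0.018) and CA1 lower (-0.87, adjusted p = 0.0356). That weighted fit called 6210 of 10595 genes higher and 34 lower. The remaining changes were 0.60 for BPGM, 0.54 for AHSP, 0.51 for BCL2L1, 0.36 for CA2, 0.31 for TRIM58, -0.01 for BNIP3L and -0.16 for CA1, with a median of 0.51 for the members and 0.70 for all genes. Without PBS replicate 3 CA2 was at 0.09, BPGM at 0.35 and BCL2L1 at 0.30, and AHSP was at 0.17 without PBS replicate 1 and at 0.89 without PBS replicate 2.

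After scaling, 8 of 9 members had a negative fitted change against PBS, with a median of -0.57. No gene tested passed (0.0%). CA1 had 200, 134 and 84.9 in Evs-FBMSC libraries, against 253, 499 and 238 in PBS libraries, a change of -1.24 (SE 0.40, limma adjusted p = 0.908). It was the 1 member without overlap, where 4.84% of genes were lower and 4.9% higher, and the 1 member at an unadjusted p under 0.05, where 2.62% were lower and 2.19% higher. Without PBS replicate 3 all 9 members were negative with a median of -1.08, where 47.3% of 10524 genes were negative. In that fit 6 members were lower at an unadjusted p under 0.05, as were 471 genes, with 266 higher. With all libraries BNIP3L was at -1.10, TRIM58 at -0.77, CA2 at -0.66, BCL2L1 at -0.57, AHSP at -0.53, BPGM at -0.47, HEMGN at -0.12 and SELENBP1 at 0.25. Of 36 ratios 5 did not overlap (13.9%), where 10.1% of all pairs did not. Among them, BNIP3L to HEMGN was 15.9, 14.8 and 14.6 in Evs-FBMSC libraries and 21.1, 50.4 and 24.7 in PBS libraries, a fold of 0.508. SELENBP1 to TRIM58 was 0.217, 0.218 and 0.148 in Evs-FBMSC libraries and 0.140, 0.0877 and 0.0606 in PBS libraries, a fold of 2.11. HEMGN relative to HBB had a fold of 2.06 without overlap, where 56.5% of genes were higher in this way and 0.0755% lower.

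Other genes of the same processes were counted from 17 lists that hold no member. In Evs-ABPC against PBS after scaling, no list had a gene that passed. The members' median of -1.69 stood between that of the adult globin list (-2.01) and those of the remaining red cell lists. The adult globin list is not limited to HBB, HBA and HBA1 but also holds HBQ1, and 5 of its 7 genes were among the deposited genes. In it 5 of 5 tested genes were negative, HBB lowest at -2.28 and HBQ1 highest at -1.58. Reticulocyte clearance and ubiquitin genes had a median of -1.25, with 23 of 25 negative, from -2.31 for ISCA1, an iron-sulfur cluster protein, to 0.33 for BNIP3, the paralog of BNIP3L. Heme and iron genes had a median of -1.17, with 15 of 17 negative, from -2.09 for GLRX5, a mitochondrial glutaredoxin, to 0.34 for CPOX, a heme synthesis enzyme. Red cell membrane genes had a median of -1.10, with 16 of 17 negative, and its highest value was 0.02 for CD47. Red cell antioxidant genes had a median of -1.0, with 10 of 11 negative, from -2.11 for PRDX6, a peroxiredoxin, to 0.24 for GCLC, which starts glutathione synthesis.

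Lists of the gene families and general pathways of single members lay nearer to 0 than these red cell lists. General mitophagy and autophagy genes, next to BNIP3L, had a median of -0.26 with 19 of 24 negative, from -1.43 for GABARAPL2, an autophagosome protein, to 0.46 for the kinase ULK2. The BCL2 family without BCL2L1 had a median of -0.17 with 10 of 13 negative, from -1.18 for BCL2A1 to 0.40 for BCL2. Glycolysis genes, next to BPGM, had a median of -0.17 with 11 of 14 negative, from -0.60 for PKM to 0.39 for ALDOC. Of the other carbonic anhydrases, 3 of 13 were tested, with CA11 at -0.03 and CA5B at 0.79. Erythroid transcription factors had a median of -0.48 with 11 of 13 negative, from -1.36 for KLF1 to 0.29 for GFI1B, and early erythroid and proliferation genes one of 0.09 with 2 of 8 negative, from -1.78 for the erythropoietin receptor EPOR to 0.50 for GATA2.

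As deposited, where 90.9% of all genes were called higher in this comparison, limma called higher 8 of 25 reticulocyte clearance genes, 6 of 17 heme and iron genes, 5 of 17 membrane genes, 6 of 11 antioxidant genes, 20 of 24 mitophagy and autophagy genes, 12 of 13 BCL2 family genes, 14 of 14 glycolysis genes and 10 of 13 erythroid transcription factors. Of 5 genes of the adult globin list and of the 9 members it called none, and in none of these lists was a gene called lower. In Evs-ABPC against Evs-FBMSC after scaling the members' median was -1.41. It was below that of the adult globin list (-1.04), of reticulocyte clearance genes (-0.67) and of heme and iron genes (-0.60). In Evs-FBMSC against PBS it was -0.57, against -0.85, -0.46 and -0.41 for those lists. Leukocyte and platelet lists had scaled medians in Evs-ABPC against PBS of 0.72 (NK cell), 0.48 (T cell), 0.19 (monocyte), -0.03 (platelet), -0.49 (B cell) and -0.52 (neutrophil). In Evs-FBMSC against PBS the medians were 0.73, 0.01, 0.66, -0.45, -0.81 and 0.13 in that order. There the B cell list lay below the members' median of -0.57.

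**Figure D5:**
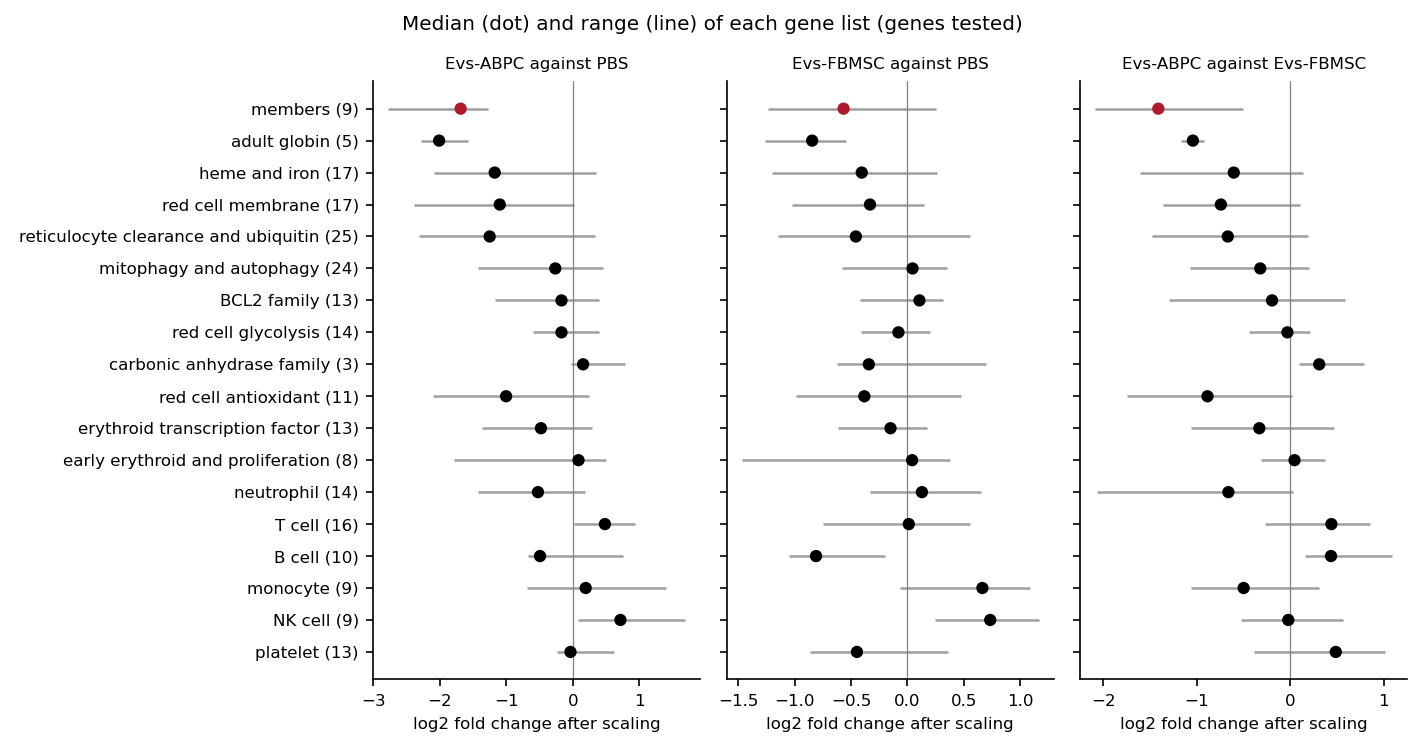
Median (dot) and range (line) of scaled log2 fold changes over the tested genes of each list (numbers in brackets) in the 3 comparisons, the members in red; the grey line is 0. In Evs-ABPC against PBS the members (-1.69) and the adult globin list (-2.01) lie farthest left, and NK cell (0.72) and T cell genes (0.48) farthest right.

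Across the 9 libraries the members were set against their mean course, to which each member itself contributes. Each gene's scaled log2 values were centred and divided by their SD, and the difference from the mean course of the members was taken as a root mean square (RMS) over libraries, as a description in which all points share the libraries and their size factors. BPGM was nearest to that mean (RMS 0.138), then BNIP3L (0.218), CA2 (0.233) and BCL2L1 (0.272). AHSP (0.380), TRIM58 (0.387), SELENBP1 (0.428), HEMGN (0.438) and CA1 (0.444) lay farther off. The mean course was lowest in Evs-ABPC replicate 2 (-1.79 SD) and highest in PBS replicates 1 and 2 (1.32 and 1.30 SD). PBS replicate 3, at -0.17 SD, lay below Evs-FBMSC replicates 1, 2 and 3 (0.50, 0.33 and -0.12 SD). BNIP3L was the member nearest to HBB (RMS 0.311) and SELENBP1 the farthest from it (0.758).

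The genes outside the members whose course was most like their mean were HYAL3 (RMS 0.160), GABARAPL2 (0.171), KEL (0.203), DCAF6 (0.205), UBL5 (0.220), GMPR (0.230), CMAS (0.239), PEX19 (0.242), NCOA4 (0.243) and NDUFA2 (0.244). All of these lay nearer to that mean than the member BCL2L1 (0.272) did. KEL encodes the Kell blood group glycoprotein, and NCOA4 is the receptor that delivers ferritin to autophagosomes. The single closest gene was DCUN1D1 for BNIP3L (0.163), LOC701466 for CA1 (0.243), RNF10 for CA2 (0.195), TSSK3 for SELENBP1 (0.244) and CTSZ for HEMGN (0.191). It was HINT1 for AHSP (0.133), CNBP for TRIM58 (0.224), and GMPR, a guanosine monophosphate reductase, for BPGM (0.180) and BCL2L1 (0.20).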

How the data were processed

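Values in the deposited table are log2 values in which the authors' per-million value, with 0.5 added, was taken to log2, a reading made from the numbers themselves. Libraries were made with a NEBNext Ultra kit and read as paired ends on an Illumina platform, per the labels' protocols, and the build is Mmul_10, per the submitters' processing notes. No aligner or counting program is given in the sources used here. All 9 columns were mapped to samples. Values were turned back to per-million values, and whole reads were recovered by a search for 1 divisor per gene (21550 of 21551 genes above 0 in 2 or more libraries came out whole, tolerance 0.001), 11.73 M to 14.47 M reads per library. Reads of near-identical genes may have been divided among copies.

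limma 3.58.1 (R 4.3.3) with a trend was fitted to log2(value + 1) for the 10596 genes that reached 1 in at least 3 libraries. All 9 libraries were in 1 fit, with group as the term and a Benjamini-Hochberg threshold of 0.05. The fit was also tried on simulated data that gave every unchanged gene the same mean in all groups. That trial was not designed for the differences in globin share between groups seen here. Fold changes of low values are understated by the added 1. Ratios, courses and figures were computed with Python 3.11.15. All 9 members are named throughout, and of the other lists the genes with the lowest and highest scaled change in Evs-ABPC against PBS, except that the lowest of the red cell membrane list is not reported here. The 10 genes most like the members' mean course, and the 1 closest to each member, were named by RMS difference. The members and the gene lists were chosen with earlier results of these data known. All 9 members matched the gene tables by symbol.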

Additional observations from a re-analysis of the deposited data

How the results depend on the processing

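With all libraries limma called no member at an adjusted p under 0.05 in any comparison on either scale. The number of members called moved from 0 in these settings. On recovered reads limma-voom called 2 members lower in Evs-ABPC against PBS as deposited (BNIP3L -1.36, CA1 -1.34), and 2 with no filter on low values, a setting chosen after seeing the data. The first fit called 26 of 10595 genes lower and 8177 higher, and the second 30 of 21550 lower and 9846 higher. After scaling limma-voom called 1 member with no filter (CA1 -2.79, adjusted p = 0.0226) and 0 with the filter. With library quality weights, also added after seeing the data, limma-voom called 3 lower as deposited and 6 lower after scaling in Evs-ABPC against PBS, 2 as deposited in Evs-FBMSC against PBS (HEMGN higher, CA1 lower) and 0 in the other 3. Of 10595 genes, the fits with calls had 43 lower and 8672 higher, 205 lower and 15 higher, and 34 lower and 6210 higher, in that order. With each library left out in turn, counts ranged from 0 to 1 in each comparison as deposited, from 0 to 5 in Evs-ABPC against PBS after scaling, and stayed at 0 in the other scaled comparisons. The calls as deposited were CA1 lower without PBS replicate 1, TRIM58 higher without Evs-ABPC replicate 2 and BNIP3L lower without Evs-ABPC replicate 3 (against PBS), SELENBP1 higher in Evs-FBMSC against PBS without Evs-ABPC replicate 2, and HEMGN lower in Evs-ABPC against Evs-FBMSC without Evs-ABPC replicate 1. In that order, those fits called 8730, 8750, 8650, 694 and 4590 genes higher and 10, 15, 10, 8 and 20 lower. The replicate block called 1 member, HEMGN in Evs-ABPC against Evs-FBMSC as deposited (-1.22, limma adjusted p = 0.0431), and 0 in the other 5. In that comparison the block fit called 3389 of 10596 genes higher and 17 lower, against 62 and 6 without the block. After scaling, correlations of same-numbered libraries of different groups ran from -0.25 to 0.28, and those of differently numbered ones from -0.42 to 0.35. They were not computed as deposited, so they do not show whether replicate numbers matter on that scale. Pseudocounts of 0.5 and 0.1, no filter and TMM scaling left all counts at 0. The edgeR and DESeq2 alternatives were not run, since the reads are a reconstruction from log2 values of a length-scaled unit.

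Most sign changes were in values as deposited. With globins taken out and the rest rescaled, Evs-ABPC against PBS gave -0.81 for SELENBP1, -0.69 for AHSP, -0.91 for BPGM, -0.48 for TRIM58 and -0.79 for BCL2L1. Evs-FBMSC against PBS gave -0.24 for CA2, -0.085 for AHSP, -0.025 for BPGM, -0.32 for TRIM58 and -0.12 for BCL2L1, and Evs-ABPC against Evs-FBMSC gave -0.16 for TRIM58. On recovered reads Evs-ABPC against PBS gave -0.21 for SELENBP1, -0.070 for AHSP (-0.072 without a filter), -0.29 for BPGM and -0.17 for BCL2L1, the others alike without a filter. With library quality weights it gave -0.41 for SELENBP1, -0.16 for AHSP, -0.24 for BPGM, -0.003 for TRIM58 and -0.22 for BCL2L1, and Evs-FBMSC against PBS gave -0.25 for CA2, -0.10 for AHSP and -0.47 for TRIM58, and after scaling -0.38 for SELENBP1. With the same globin sum, BNIP3L was at 0.08 in Evs-FBMSC against PBS, and AHSP at 0.12 and BCL2L1 at 0.053 in Evs-ABPC against Evs-FBMSC. With libraries left out as deposited, ranges that crossed 0 in Evs-ABPC against PBS were -0.55 to 0.04 for CA2, -0.21 to 0.61 for SELENBP1, -0.56 to 0.16 for HEMGN and -0.071 to 0.65 for BPGM. In Evs-FBMSC against PBS they were -0.14 to 0.11 for BNIP3L, -0.59 to 0.22 for CA1 and -0.016 to 0.65 for TRIM58. In Evs-ABPC against Evs-FBMSC they were -0.35 to 0.45 for AHSP, -0.68 to 0.044 for BPGM and -0.25 to 0.18 for BCL2L1. After scaling they were -0.60 to 0.81 for SELENBP1 and -0.42 to 0.43 for HEMGN in Evs-FBMSC against PBS. The cause was not tested. Every member had 88 or more recovered reads in every library.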
